A study of Mus musculus with 15 samples.

Results

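Kidneys of mice that drank for only 15 min per day during the week after weaning (RES 1W) were compared with kidneys of mice that drank freely (CON 1W). The comparison used 8 of the 15 Illumina whole-genome arrays of the study, 4 RES 1W and 4 CON 1W. All mice were C57BL/6 males fed AIN-93G chow without limit. Restriction began at the age of 3 weeks, and these mice were 4 weeks old at death. Restricted animals were killed 24 h after their last water, so the arrays read the end of a daily period without drinking. For comparison, 3 CON 4W and 4 RES 4W arrays came from mice kept the same way for 4 weeks, to the age of 7 weeks. The labels speak of more mice per group than there are arrays. The study's description of its arrays treats each as a separate kidney sample. Litters and cages are not given in the sources used here, and p-values measure the spread between these kidneys.

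Levels are given on the log2 scale after limma's neqc, which adds an offset of 16. A difference of 1.00 is a doubling of the level with its offset, and fold values are meant in this way. The offset shrinks changes of dim probes, so their size depends on the processing. Over the alternatives described at the end, the log2 fold change of dim Cdk1 ranged from -1.97 to -0.60, and that of bright Col4a1 from -0.58 to -0.51. A probe was tested if its signal was above the array's negative control beads (detection p under 0.05) in at least 3 of the 15 arrays. This left 19027 of 45281 probes, which stand for 10838 named genes. Where several probes of a gene were tested, the brightest stands for it, and the threshold for a call was a Benjamini-Hochberg adjusted p under 0.05. Between 15553 and 17420 probes were detected in each of the 8 arrays. On the first principal component of the 8 arrays (29.7% of the variance) the CON 1W arrays scored between -20.7 and -8.7 and the RES 1W arrays between 12.7 and 18.9. The arrays carried the marks of whole kidney: 10 of 10 proximal tubule markers, 8 of 8 principal cell markers and 12 of 12 endothelial markers were tested. Umod, which encodes uromodulin of the thick ascending limb, was at 14.11 to 14.18 in CON 1W and 14.14 to 14.31 in RES 1W. One array outside the comparison, RES 4W replicate 1, correlated at 0.978 to 0.979 with the other 3 of its group, which correlated at 0.994 to 0.996 with each other. It correlated at 0.988 to 0.989 with the CON 4W arrays and at 0.984 to 0.987 with the 8 arrays at 1 week, whereas the other 3 RES 4W arrays were at 0.978 to 0.982 with all arrays outside their own group. Replicate 1 was thus nearer to the controls than to its own group. It enters the comparison at 1 week through the shared estimate of spread, and every effect at 4 weeks and every difference from it through its own values.

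The kidney saves water by inserting aquaporin channels into the collecting duct under vasopressin, and by holding a salty, urea-rich medulla whose cells take up organic osmolytes to keep their volume. Thirst also raises stress hormones and lowers food intake in rodents. In the weeks around weaning the mouse kidney is still growing, and dividing cells are common in its tubules, so genes of mitosis are read more easily than in the adult. Whole-kidney RNA cannot tell apart fewer cells of a type from less RNA per cell.

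Restriction for 1 week changed 534 probes, 2.81% of those tested, of which 271 were higher (1.42%) and 263 lower (1.38%). At an unadjusted p under 0.05 the number was 2730. Among the called probes the median size of the change was 0.64 on the log2 scale, and 85 passed 2-fold, 42 of them higher and 43 lower. By gene, 369 of 10838 were called (3.4%), 194 higher (1.79%) and 175 lower (1.61%). The 4 RES 1W arrays did not overlap the 4 CON 1W arrays for 522 of the 534 called probes, and for 10.1% of all tested probes. For a single gene without overlap (11.3% of all tested genes) the exact permutation test gave p = 0.029 (two-sided), the smallest value that 70 regroupings of 4 against 4 allow. The stricter limits named in the study's methods (adjusted p below 0.01, change above 1.5-fold) were met by 189 probes (0.993%). Leaving out CON 1W replicate 3 reduced the 534 to 318, leaving out RES 1W replicate 4 to 291, and leaving out RES 4W replicate 1 gave 820.

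**Figure D1:**
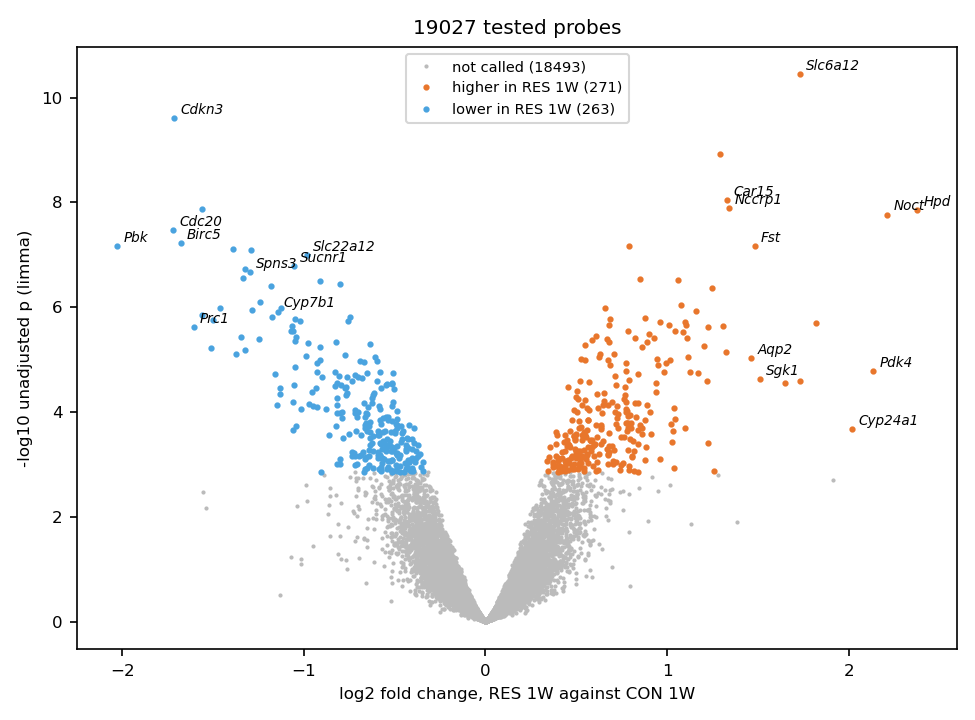
Log2 fold change of RES 1W against CON 1W (x axis) and -log10 of the unadjusted limma p (y axis) for 19027 tested probes. The 271 higher and 263 lower probes form nearly even arms, led by Slc6a12 on the right and Cdkn3 on the left.

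Hpd, the tyrosine breakdown enzyme 4-hydroxyphenylpyruvate dioxygenase, showed the largest rise. It was at 7.83, 7.74, 7.37 and 7.29 in the CON 1W kidneys and at 10.14, 9.80, 9.22 and 10.58 in the RES 1W kidneys. The highest control thus lay well below the lowest restricted kidney, and the mean was 5.19-fold higher in RES 1W (log2 fold change 2.38, SE 0.23, adjusted p = 3.8e-05). Pbk, which encodes a mitotic kinase, showed the largest fall. Its levels were 8.16, 7.87, 8.40 and 8.05 in CON 1W and 5.81, 6.76, 5.51 and 6.29 in RES 1W. All restricted kidneys were below all controls, by 4.08-fold on average (log2 fold change -2.03, SE 0.22, adjusted p = 0.0001). The 15 largest rises ran from Hpd to Folh1 at 1.23 and held genes of metabolism, water and salt handling and stress signalling. Ctse, an aspartic protease gene among these rises, passed narrowly (adjusted p = 0.049) and was lost in 10 of 15 repeats that left out 1 array (highest adjusted p = 0.15). The 15 largest falls were led by genes of mitosis and held 4 genes of histone H2A.

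**Figure D2:**
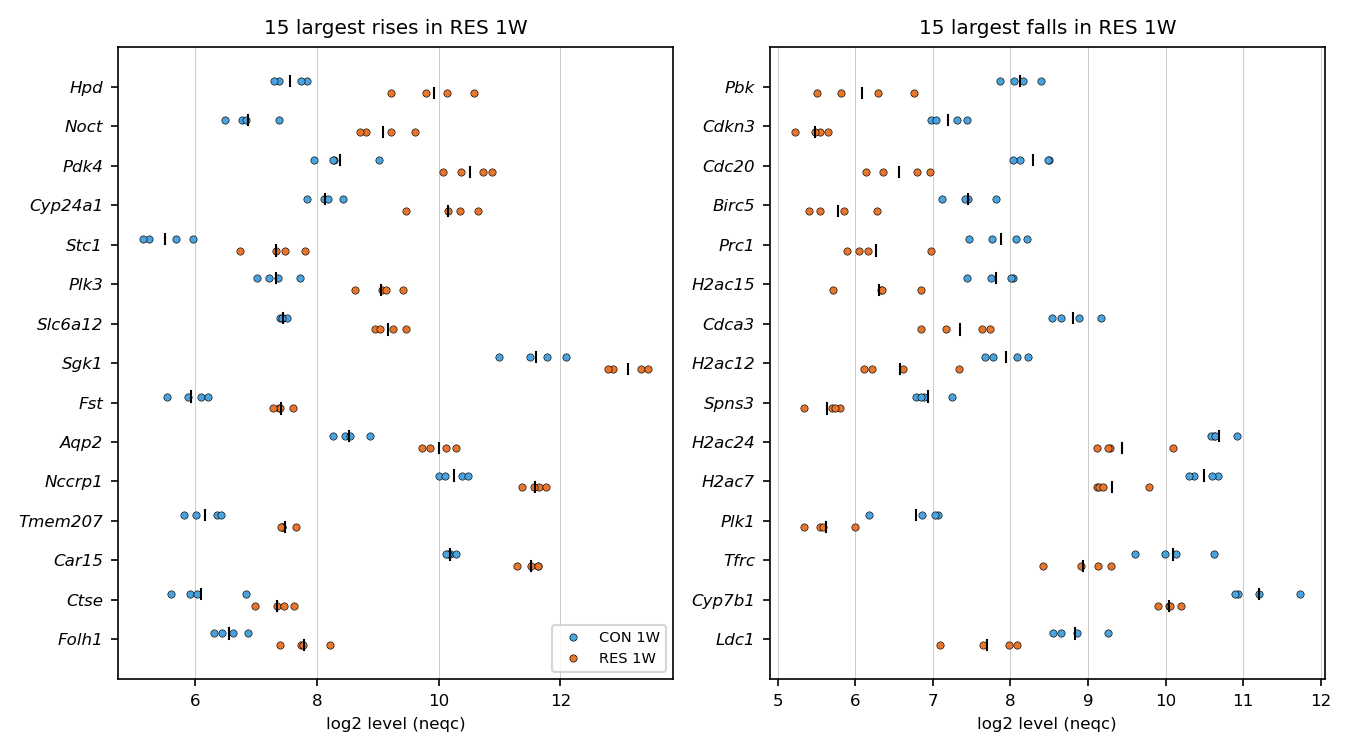
Log2 levels (x axis) of the genes with the 15 largest rises and the 15 largest falls among called genes whose groups did not overlap; each point is 1 array and each bar a group mean of 4. Hpd moved from 7.29 to 7.83 in CON 1W to 9.22 to 10.58 in RES 1W, and Pbk from 7.87 to 8.40 down to 5.51 to 6.76.

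Of the 8 tested aquaporins 3 were called, all higher. Aqp2, the vasopressin-regulated channel of the collecting duct, was at 8.26, 8.46, 8.87 and 8.55 in CON 1W and at 9.72, 9.86, 10.28 and 10.13 in RES 1W. The groups stood 2.76-fold apart without overlap (log2 fold change 1.46, SE 0.23, adjusted p = 0.0020), and another probe of the gene rose by 1.29 (adjusted p = 7.5e-06). Aqp3, the channel through which water leaves the same cells on the blood side, was at 8.82 to 8.96 in CON 1W and 9.35 to 9.46 in RES 1W, 1.42-fold higher without overlap (log2 fold change 0.50, SE 0.09, adjusted p = 0.0049). Aqp1, the channel of the proximal tubule and thin descending limb, rose by 0.53 (SE 0.12, adjusted p = 0.020). Its call was lost without CON 1W replicate 3 or 4 or RES 1W replicate 1 or 4 (adjusted p = 0.053 to 0.084), and its other probes missed the threshold (0.46, adjusted p = 0.10, and 0.41, adjusted p = 0.069). The median log2 fold change of the 8 aquaporins was 0.40, with 3 of 8 below 0, and 1.79% of all genes were called higher, with a median of 0.00. Aqp4, which shares the basolateral membrane with Aqp3, had 0.48 (adjusted p = 0.056).

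In the list of vasopressin signalling and urea transport 3 of 15 genes were higher and 0 lower (1.79% and 1.61% over all genes), with a median of 0.18. Slc14a1, the urea transporter of red cells and descending vasa recta, was at 4.73, 5.04, 4.65 and 4.85 in CON 1W, where 1 of 4 arrays detected it, and at 5.87, 5.47, 6.04 and 5.70 in RES 1W, where all 4 did. The groups did not overlap (log2 fold change 0.95, SE 0.15, adjusted p = 0.0023). With 3 control arrays not above background the size of the change is uncertain, and it ranged from 0.51 to 1.81 over the alternatives. Avpr1a, a vasopressin receptor of vessels and distal segments, rose by 0.41, and Crem, a cAMP-responsive transcription factor, by 0.59 (adjusted p = 0.035 and 0.043). These calls were lost in 7 and 11 of 15 repeats that each left out 1 array (highest adjusted p = 0.11 and 0.14). The other 12 of 15 members did not pass the test, among them Avpr2, the V2 receptor that drives Aqp2, at 4.61 to 5.26 in CON 1W and 4.64 to 5.23 in RES 1W (log2 fold change 0.03, adjusted p = 0.97). Principal cell markers were called in 2 of 8, Aqp2 and Aqp3 themselves, with a median of 0.00 for the list.

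Slc6a12, the betaine transporter that loads cells with osmolyte when the medulla is salty, showed the clearest change of all tested genes. Its 4 CON 1W kidneys were within 7.39 to 7.50, and its RES 1W kidneys were at 9.25, 8.95, 9.46 and 9.04. This 3.32-fold rise (log2 fold change 1.73, SE 0.11, adjusted p = 6.9e-07) exceeded the spread within either group many times. Slc6a6, the taurine transporter, rose by 0.44 (adjusted p = 0.028). It missed the threshold without CON 1W replicate 2, 3 or 4 or RES 1W replicate 1 or 4 (highest adjusted p = 0.11). The other 6 of 8 osmolyte genes were not called (over all genes 1.79% were higher and 1.61% lower). Nfat5, the transcription factor that switches on these transporters under high salt, was level, at 7.82 to 8.01 in CON 1W and 7.80 to 8.10 in RES 1W (log2 fold change 0.01, adjusted p = 0.99). Because NFAT5 recognises a tonicity-responsive element that starts with TGGAAA, the 250 bases before the listed start of Slc6a12 were searched for these letters on both strands, in RefSeq's GRCm38.p6. They occurred once, in capitals here, beginning 75 bases before the start; the gene has 5 listed starts, and the one given first in the table is shown.
Slc6a12, chr6:121342324-121342573, plus strand: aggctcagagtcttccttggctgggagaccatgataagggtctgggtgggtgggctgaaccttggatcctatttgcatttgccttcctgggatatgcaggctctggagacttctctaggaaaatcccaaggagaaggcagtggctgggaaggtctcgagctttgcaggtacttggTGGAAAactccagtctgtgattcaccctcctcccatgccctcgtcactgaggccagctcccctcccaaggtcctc
The same letters were found in 16.7% of the called higher genes with a listed start, in 23.9% of the called lower genes and in 15.4% of all tested genes, so they were common in all 3 sets.

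Single genes of salt and acid transport were called (over all genes 1.79% were higher and 1.61% lower). Car15, a membrane-bound carbonic anhydrase, rose by 2.52-fold, from 10.13 to 10.29 in CON 1W to 11.29 to 11.63 in RES 1W (log2 fold change 1.33, SE 0.12, adjusted p = 3.8e-05). The other 15 of 16 tested genes of acid-base transport were not called. Slc12a1, the furosemide-sensitive sodium, potassium and chloride cotransporter of the thick ascending limb, was at 12.58, 12.52, 12.32 and 12.13 in CON 1W and at 12.95 ± 0.05 (SD, n = 4) in RES 1W, where the lowest array was at 12.87. It was higher in all restricted kidneys (log2 fold change 0.56, SE 0.11, adjusted p = 0.0084), and 2 further probes rose by 0.64 and 0.70, while its 2 dim probes had 0.26 and 0.25 and were not called. It was the 1 called gene of 11 in its list, and the summed linear level of 5 thick ascending limb markers, Slc12a1 among them, was 25100 to 27700 in CON 1W and 29400 to 32200 in RES 1W. The part of that shift in the change of Slc12a1 was not tested. Probes of Cldn10, a tight junction claudin of the same limb, disagreed: the brightest had -0.08 (adjusted p = 0.82), another rose by 0.72 (adjusted p = 0.013) and a further one fell by 1.06 (adjusted p = 0.00096), so the gene has no settled direction. In the distal list 2 of 18 genes were called, and both, Sgk1 and Tsc22d3, also respond to glucocorticoids. The subunits of the sodium channel ENaC did not pass the test, with Scnn1b at a log2 fold change of -0.27 (adjusted p = 0.24). Pvalb, a calcium-binding marker of the distal convoluted tubule, fell by 0.71 (SE 0.14, adjusted p = 0.011), while Slc12a3, the thiazide-sensitive transporter of the same cells, had -0.04 (adjusted p = 0.94).

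Tmem207, a small membrane protein gene, rose by 1.33 (adjusted p = 0.0017), and Nccrp1, an F-box family member, by 1.34 (adjusted p = 3.8e-05). Ranbp3l, named after its values were seen, rose from 10.39 to 10.80 in CON 1W to 11.29 to 11.49 in RES 1W (adjusted p = 0.0011). In the renin-angiotensin list 1 of 8 tested genes was called (over all genes 1.79% were higher and 1.61% lower). The renin gene Ren1 was not among the named genes tested, so its level was not read here. Ace, the angiotensin-converting enzyme, fell by 0.57 (SE 0.12, adjusted p = 0.013), with an adjusted p of 0.057 without RES 1W replicate 4, and its 2 dim probes were not called. Genes of the proximal tubule's organic ion transport moved in both directions. Slc22a12, the urate exchanger of the brush border, was within 10.91 to 11.16 in CON 1W and 9.88 to 10.12 in RES 1W (log2 fold change -0.99, SE 0.11, adjusted p = 0.00012). Slc2a9, a urate carrier on the opposite membrane in human tubules, rose from 6.38 to 6.86 to 7.29 to 7.94 (log2 fold change 1.08, SE 0.14, adjusted p = 0.0006), although its other, dim probe had 0.01 (adjusted p = 0.99). Slc22a6, the organic anion transporter OAT1, fell by 0.49 (adjusted p = 0.011). Of 16 genes in that list these were the 3 called. None of 13 amino acid transporters and none of 13 genes of sugar, peptide and endocytic uptake was called by limma, and the lowest adjusted p among them were 0.12 and 0.089. Sucnr1, the succinate receptor, named after its values were seen, fell from 9.55 to 9.81 to 8.36 to 8.86 (log2 fold change -1.05, SE 0.12, adjusted p = 0.00018).

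Some genes that glucocorticoids or fasting induce were among the largest rises. Restricted mice ate less at first, as the study reports, and the part of this in these values was not tested. Sgk1, a kinase induced by steroid hormones and by osmotic stress, was at 11.60 ± 0.46 (SD, n = 4) in CON 1W, with a highest array at 12.09, and at 12.87, 13.33, 12.79 and 13.44 in RES 1W. All restricted kidneys were above all controls, though the controls were widely spread (log2 fold change 1.51, SE 0.26, adjusted p = 0.0035). Pdk4, which blocks glucose oxidation in fasting, was at 8.28, 7.95, 9.02 and 8.27 in CON 1W and 10.08, 10.73, 10.37 and 10.88 in RES 1W, without overlap (log2 fold change 2.14, SE 0.35, adjusted p = 0.0030). Cebpb, a transcription factor of the liver and kidney stress response, rose by 0.98 (SE 0.16, adjusted p = 0.0030), and Ddit4, an inhibitor of mTORC1, by 1.04 (SE 0.20, adjusted p = 0.0082). Angptl4, a secreted inhibitor of lipoprotein lipase, rose by 0.73 (adjusted p = 0.015), and Tsc22d3, which encodes the glucocorticoid-induced leucine zipper, by 0.80 (adjusted p = 0.032). The call of Angptl4 was lost without CON 1W replicate 3 or 4 or RES 1W replicate 4 (highest adjusted p = 0.061). That of Tsc22d3 was lost without CON 1W replicate 3 or 4 or RES 1W replicate 2, 3 or 4 (highest adjusted p = 0.12), and its 2 other probes were not called. In all, 6 of 21 glucocorticoid-responsive genes were higher and 1, Ccnd1, lower, with a median of 0.36, against 1.79% and 1.61% of all genes and a median of 0.00. Klf9 and Errfi1, which the same hormones also induce, had 0.12 and 0.19 (adjusted p = 0.70 and 0.65).

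In the list of the fasting response 4 of 17 genes were higher and 0 lower (1.79% and 1.61% over all genes), with a median of 0.37. Beside Pdk4 and Angptl4 these were Acot2 and Acot1, which release fatty acids from coenzyme A in mitochondria and cytosol and rose by 0.94 and 0.70 (adjusted p = 0.0051 and 0.040). The call of Acot1 was lost in 10 of 15 repeats that left out 1 array (highest adjusted p = 0.12), though its other probe rose by 0.86 (adjusted p = 0.015), and the dimmer probe of Acot2 was not called (-0.35, adjusted p = 0.38). Acot1, Acot2 and Acot3 are close copies, so their probes may read each other's transcripts. Acot3, a peroxisomal member, and Acnat2, an acyltransferase, both named after their values were seen, were 2.02-fold and 2.24-fold higher (adjusted p = 0.00085 and 0.00067). Acadm, the medium-chain dehydrogenase of mitochondrial fat oxidation, was not called (-0.11, adjusted p = 0.70). Lpl, lipoprotein lipase, fell from 13.99 to 14.12 in CON 1W to 13.30 to 13.66 in RES 1W (log2 fold change -0.55, adjusted p = 0.025). That call was lost in 7 of 15 repeats that left out 1 array (highest adjusted p = 0.10), and the dim probe of the gene had -0.15. Adipocyte markers were low and uneven: Ucp1, of brown fat, was at 4.97, 5.99, 7.49 and 6.60 in CON 1W and at 4.42 to 5.30 in RES 1W (log2 fold change -1.56, adjusted p = 0.082). The summed linear level of the 3 tested adipocyte markers was 84.3 to 545 in CON 1W and 82.8 to 135 in RES 1W, and its part in the change of Lpl was not tested.

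Amino acid breakdown moved at a few steps. Of 25 tested enzymes 3 were called, all higher (1.79% over all genes), and 20 of 25 had a log2 fold change above 0, with a median of 0.11. Beside Hpd these were Gldc, the glycine-cleaving decarboxylase of mitochondria, which rose from 11.51 to 12.12 to 12.58 to 12.95 (log2 fold change 0.93, SE 0.14, adjusted p = 0.0011), and Kynu, kynureninase of tryptophan breakdown, which rose by 0.99 (SE 0.16, adjusted p = 0.0022). Fah, which acts after Hpd on the tyrosine route, had 0.03 (adjusted p = 0.93). Pck1, the key enzyme by which the tubule makes glucose, rose by 0.91 (SE 0.20, adjusted p = 0.017), whereas Pcx, pyruvate carboxylase, fell by 0.43 (SE 0.09, adjusted p = 0.019). The call of Pck1 was lost without CON 1W replicate 3 or 4 or RES 1W replicate 3 or 4 (highest adjusted p = 0.069), and that of Pcx without CON 1W or RES 1W replicate 2 (highest adjusted p = 0.064). The other 9 of 11 genes of gluconeogenesis and glutamine use did not pass. None of 13 genes of cholesterol synthesis was called by limma, although 11 of 13 had values below 0.

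Vitamin D and sterol enzymes showed opposite shifts. Cyp24a1, which inactivates vitamin D, was at 8.11, 7.84, 8.43 and 8.18 in CON 1W and at 9.47, 10.35, 10.15 and 10.64 in RES 1W, a 4.05-fold rise (log2 fold change 2.02, SE 0.42, adjusted p = 0.015). The call had an adjusted p of 0.061 without RES 1W replicate 4. The vitamin D receptor gene Vdr had 0.40 (adjusted p = 0.081). Slc8a1, the sodium-calcium exchanger by which distal cells return calcium to blood, fell by 0.81 (SE 0.14, adjusted p = 0.0032), and by 1.29 by its other probe. Stc1, which encodes the calcium-regulating hormone stanniocalcin 1, was at 5.14 to 5.96 in CON 1W and 6.73 to 7.80 in RES 1W (log2 fold change 1.82, SE 0.25, adjusted p = 0.00084). Cyp7b1, an oxysterol hydroxylase that is richer in male mice, fell from 10.90 to 11.73 to 9.90 to 10.20 (log2 fold change -1.14, SE 0.15, adjusted p = 0.00068). Of 19 cytochrome P450 genes 3 were higher and 2 lower (1.79% and 1.61% over all genes). Cyp2d26 and Cyp2d9, close copies that may share probe signal, rose by 0.84 and 0.79 (adjusted p = 0.023 and 0.042) and were lost in 5 and 9 of 15 repeats that left out 1 array (highest adjusted p = 0.084 and 0.13), and Cyp2j13 fell by 0.69 (adjusted p = 0.0021). In the list of hormone-responsive kidney genes of puberty 2 of 14 were lower and 0 higher (1.61% and 1.79% over all genes), with 11 of 14 below 0 and a median of -0.30. The called members were Timd2, a ferritin receptor, at -0.83 (adjusted p = 0.0042), and Odc1, the androgen-induced enzyme of polyamine synthesis, at -0.75 (adjusted p = 0.017), the latter lost without CON 1W replicate 3 or RES 1W replicate 4 (adjusted p = 0.069 and 0.059).

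Clock genes changed in both directions. Outside the list of 14 clock genes, Noct, which encodes the rhythmic deadenylase-like protein nocturnin, was at 7.37, 6.77, 6.49 and 6.84 in CON 1W and at 8.80, 9.22, 9.61 and 8.70 in RES 1W, 4.64-fold higher (log2 fold change 2.21, SE 0.21, adjusted p = 4.1e-05). Per1, a clock repressor that glucocorticoids also induce, was at 6.90, 6.96, 6.37 and 6.74 in CON 1W and 7.80, 7.59, 8.06 and 7.68 in RES 1W, and both of its probes rose, by 1.04 and 1.02 (adjusted p = 0.012 and 0.013). Nr1d1, which encodes REV-ERB alpha, fell from 7.06 to 7.33 to 5.75 to 6.49 (log2 fold change -0.93, SE 0.15, adjusted p = 0.0030). Dbp, a rhythmic output factor, fell from 12.76 to 12.93 to 11.64 to 12.57 (log2 fold change -0.82, SE 0.16, adjusted p = 0.0094). Cry2 rose by 0.62 (adjusted p = 0.047), a call lost in 11 of 15 repeats that left out 1 array (highest adjusted p = 0.14). Within the list 2 genes, Per1 and Cry2, were higher and 2, Nr1d1 and Dbp, lower (1.79% and 1.61% over all genes), and the median of the list was 0.04. The hour of death is not given in the sources used here, and its part in these values was not tested.

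Stress markers were called in some lists and not in others (over all genes 1.79% were higher and 1.61% lower). Lcn2, an injury marker of the tubule, rose from 5.90 to 6.52 in CON 1W to 6.67 to 7.41 in RES 1W (log2 fold change 0.80, adjusted p = 0.015), and Sox9, a factor of tubule repair, fell by 0.62 (adjusted p = 0.044). The call of Lcn2 was lost without CON 1W replicate 2 or RES 1W replicate 4 (highest adjusted p = 0.059) and that of Sox9 in 11 of 15 repeats that left out 1 array (highest adjusted p = 0.15). The other 9 of 11 injury markers did not pass. Cryab, a small heat shock protein that is abundant in the salty medulla, was the 1 called gene of 15 chaperones (log2 fold change 0.68, adjusted p = 0.017), a call lost without RES 1W replicate 3 or 4 (adjusted p = 0.060 and 0.069). None of 14 genes of the unfolded protein response was called by limma (lowest adjusted p = 0.15). Of 12 hypoxia-induced genes 3 were higher, Car9, a carbonic anhydrase, by 0.94 (adjusted p = 0.0039), Ndrg1 by 0.65 (adjusted p = 0.0052) and the glucose transporter gene Slc2a1 by 0.44 (adjusted p = 0.039). The median of that list was 0.00, and the call of Slc2a1 was lost in 9 of 15 repeats that left out 1 array (highest adjusted p = 0.13). In the antioxidant list 2 of 12 were higher, the near-identical glutathione transferase genes Gsta1 and Gsta2 (0.82 and 0.88, adjusted p = 0.028 and 0.012), which may share probe signal. The call of Gsta1 was lost in 6 of 15 such repeats (highest adjusted p = 0.092). Of 14 immediate early genes 2 were higher, Ier3 by 0.65 and Klf6 by 0.49 (adjusted p = 0.021 and 0.018), and were lost in 4 and 3 of 15 such repeats (highest adjusted p = 0.079 and 0.072). Among stress-activated kinases and phosphatases, Plk3 was 3.32-fold higher (log2 fold change 1.73, SE 0.30, adjusted p = 0.0037) and Dusp8, named after its values were seen, 2.15-fold (adjusted p = 0.0011).

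Genes of cell division fell as a group. Of 18 tested genes of mitosis and chromosome segregation 17 were lower in RES 1W and 0 were higher, with a median of -0.86 and a range from -2.03 to -0.28, against 1.61% of all genes called lower and a median of 0.00. The exception, Ttk, was near background. Cdc20, the activator that lets the anaphase-promoting complex start chromosome separation, was at 8.50, 8.12, 8.49 and 8.03 in CON 1W and at 6.36, 6.96, 6.14 and 6.80 in RES 1W. The restricted kidneys lay over 1 log2 unit below the lowest control (3.30-fold, log2 fold change -1.72, SE 0.18, adjusted p = 7.3e-05). Its other probes had -1.51, -1.34 and, for a dim one, -0.19 (adjusted p = 0.73). Outside the list, Cdkn3, a phosphatase of cyclin-dependent kinases, was at 7.31, 6.98, 7.44 and 7.04 in CON 1W and 5.55, 5.65, 5.22 and 5.48 in RES 1W (log2 fold change -1.72, SE 0.12, adjusted p = 2.4e-06). Birc5, which encodes survivin of the chromosomal passenger complex, fell by 1.68, and Cdca8, its partner borealin, by 0.91 (adjusted p = 0.0001 and 0.00027). Prc1, which bundles the microtubules of the central spindle, fell by 1.61 and Cdca3, a trigger of mitotic entry, by 1.46 (adjusted p = 0.00085 and 0.00064). Plk1 and Cdk1, kinases of mitotic entry, fell by 1.16 and 1.05 (adjusted p = 0.0030 and 0.0041).

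At the dim end of this list Top2a, topoisomerase II alpha, was detected in 4 CON 1W arrays and 0 RES 1W arrays and was at least 1.20-fold lower in RES 1W (adjusted p = 0.035). Nusap1, a spindle protein gene, was at least 1.38-fold lower (adjusted p = 0.023) and Cdc25c, the phosphatase that activates CDK1, at least 1.08-fold lower (adjusted p = 0.0045). Both were detected in 0 RES 1W arrays. Cdc25c was detected in 3 of the CON 1W arrays and in 0 arrays of each other group, so it passed the filter only through CON 1W. Top2a and Nusap1 also passed it through detection outside RES 1W. A gene admitted only through the group where it is high can only be found lower, so these falls add no support to the count of lower genes. The bounds above set the mean of CON 1W against the lowest signal above background. Calls lost when 1 array was left out were those of Kif2c (12 of 15 repeats, highest adjusted p = 0.16), Top2a (6, 0.13), Ncaph (4, 0.081) and Nusap1 (3, 0.083). Without background correction the count of lower genes was 12 of 18, the fewest of any alternative.

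Genes of mitosis often carry a CCAAT box, bound by NF-Y, close before a cell cycle genes homology region (CHR, TTTGAA), bound by the DREAM complex in resting cells and by B-MYB and FOXM1 complexes in dividing cells. The 250 bases before the listed start were therefore searched on both strands in RefSeq's GRCm38.p6, and the 3 windows below show where these letters, in capitals, stand in 3 genes that fell. In Cdc20 a CHR begins 18 bases before the start and CCAAT boxes 53 and 8 bases before it.
Cdc20, chr4:118437344-118437593, minus strand: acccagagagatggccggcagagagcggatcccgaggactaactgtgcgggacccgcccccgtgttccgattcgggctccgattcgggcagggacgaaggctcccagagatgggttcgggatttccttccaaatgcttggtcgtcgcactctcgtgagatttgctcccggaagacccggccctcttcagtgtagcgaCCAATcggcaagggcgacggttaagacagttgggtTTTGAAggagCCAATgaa
Cdk1, chr10:69352913-69353162, minus strand: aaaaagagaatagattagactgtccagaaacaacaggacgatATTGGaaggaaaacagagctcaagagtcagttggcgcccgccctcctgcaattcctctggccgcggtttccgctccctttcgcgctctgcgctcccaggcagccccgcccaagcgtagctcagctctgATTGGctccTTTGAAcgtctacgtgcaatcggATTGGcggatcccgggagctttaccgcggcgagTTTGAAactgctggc
Top2a, chr11:99024190-99024439, minus strand: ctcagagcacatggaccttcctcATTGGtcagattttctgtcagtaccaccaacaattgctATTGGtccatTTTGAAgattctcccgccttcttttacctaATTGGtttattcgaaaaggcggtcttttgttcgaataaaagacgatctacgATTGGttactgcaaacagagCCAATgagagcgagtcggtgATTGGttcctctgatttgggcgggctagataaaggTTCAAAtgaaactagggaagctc
Cdk1 and Top2a carry 2 CHR each, the nearer of them 15 and 23 bases before the start. A CHR was found in 5 of the 15 called mitosis genes with a listed start (33.3%), in 17.6% of all 142 called lower genes with one, in 6.67% of the 150 called higher genes and in 10.4% of the 8745 tested genes. CCAAT boxes stood in 73.3%, 50.7%, 46.0% and 36.0% of these sets. Both letters together were found in 26.7%, 11.3%, 3.33% and 4.06%. These are matches of short strings in a fixed window and not binding sites. The tonicity letters TGGAAA, searched above, stood in 23.9% of called lower and 15.4% of tested genes. The remaining strings were at shares like those of all tested genes or too rare to compare. The E-box CACGTG stood in 15 of the 150 called higher genes and in 8.48% of tested genes. The cAMP response element TGACGTCA stood in 2.0% and 2.65%, and the E2F site TTTCCCGC in 0.704% of called lower and 1.64% of tested genes. The glucocorticoid response element, in its full form, was found in 3 of the 8745 windows, 1 of them of a called higher gene.

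Of 25 genes of DNA replication and nucleotide synthesis 7 were lower and 0 higher (1.61% and 1.79% over all genes), 23 of 25 were below 0, and the median was -0.27. Mcm10, which loads polymerase at the fork, was within 8.39 to 8.49 in CON 1W and 6.99 to 7.62 in RES 1W (log2 fold change -1.05, SE 0.14, adjusted p = 0.00079). Rrm2, the ribonucleotide reductase subunit that limits deoxynucleotide supply, fell by 1.02, and Tk1, thymidine kinase, by 0.91 (adjusted p = 0.00082 and 0.0014). Mcm5 and Mcm6, subunits of the replicative helicase, fell by 0.64 and 0.66 (adjusted p = 0.027 and 0.033) with overlap of the groups. Both calls were lost without CON 1W replicate 1, 2 or 3 or RES 1W replicate 1 or 3, and that of Mcm6 also without RES 1W replicate 4 (highest adjusted p = 0.090 and 0.12). Mcm4 of the same ring had -0.21 (adjusted p = 0.36). The calls of Chaf1b and Cdc45 were lost in 5 and 11 of 15 repeats that left out 1 array (highest adjusted p = 0.13 and 0.15). Uhrf1, which keeps DNA methylation through replication and was named after its values were seen, was at least 1.83-fold lower, detected in 0 RES 1W arrays (adjusted p = 0.0086).

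Histone genes, counted by symbol after the values were seen, were lower in 7 of 46 (1.61% over all genes), with 41 of 46 below 0, against 5450 of all 10838 genes, and a median of -0.25. Those called included H2ac15, H2ac12, H2ac24 and H2ac7, replication-dependent genes of histone H2A, at -1.50, -1.37, -1.25 and -1.18 (highest adjusted p = 0.0018, of H2ac12). These genes are near-identical copies, so a probe may read several of them and they are not separate evidence. H2ac24 was at 10.62, 10.58, 10.92 and 10.64 in CON 1W and 9.12, 10.10, 9.28 and 9.26 in RES 1W, with RES 1W replicate 2 nearest to the controls, as for H2ac7 (9.79 against 9.12 to 9.19 in the other 3). Spns3, a gene of the spinster transporter family, fell from 6.78 to 7.25 to 5.34 to 5.80 (log2 fold change -1.30, SE 0.15, adjusted p = 0.00021). Tfrc, the transferrin receptor that dividing cells use for iron, fell by 1.15 (adjusted p = 0.0076).

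In the list of G1 cyclins and inhibitors 2 of 19 genes were higher and 1 lower (1.79% and 1.61% over all genes). Cdkn2b, the inhibitor p15 that blocks CDK4 and CDK6, rose from 5.06 to 5.82 to 6.46 to 6.82 (log2 fold change 1.12, SE 0.17, adjusted p = 0.0019), and Ccnd1, cyclin D1 of G1, fell from 13.13 to 13.22 to 12.42 to 12.77 (log2 fold change -0.58, SE 0.10, adjusted p = 0.0030). Gadd45g, a growth arrest gene, rose by 0.96 with overlap of the groups (adjusted p = 0.035), a call lost in 6 of 15 repeats that left out 1 array (highest adjusted p = 0.12). The other 16 of 19 genes of that list, Cdkn1c and Mdm2 among them, did not pass. Ddit4l, a paralogue of Ddit4 named after its values were seen, rose by 0.90 (adjusted p = 0.0010). Fst, whose product follistatin binds activin, was at 5.88, 5.53, 6.10 and 6.21 in CON 1W and 7.38, 7.39, 7.61 and 7.27 in RES 1W (log2 fold change 1.48, SE 0.16, adjusted p = 0.0001). Id1, Id2 and Id3, inhibitors of differentiation that BMP signals induce, fell by 0.90, 0.88 and 0.82 (adjusted p = 0.0033, 0.0084 and 0.0040). Id1 was at 8.46, 8.80, 8.85 and 8.90 in CON 1W and 7.74, 8.10, 7.71 and 7.84 in RES 1W, so that its groups did not overlap. The dimmer probe of Id2 had -0.65 (adjusted p = 0.16). These were the 4 called of 15 genes of activin, BMP and Id signalling, and Bmp4, Bmp7 and Bmpr2 were not called. In the IGF axis Igfbp5, an IGF-binding protein, rose by 0.52 (adjusted p = 0.0037), with 0.71 and 0.63 by its other probes, and Pappa, a protease that frees IGF from its carriers, rose by 0.82 (adjusted p = 0.0074), 2 of 18.

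In the Hedgehog pathway, which patterns the growing ureter and stroma, 1 of 12 genes was called (3.4% of all genes were). This was Glis1, a Gli-similar transcription factor that the study places in Shh signalling. Glis1 was at 8.02, 8.20, 8.00 and 7.87 in CON 1W and 7.64, 7.14, 7.10 and 7.52 in RES 1W (log2 fold change -0.67, SE 0.13, adjusted p = 0.0073). Smo, the transducer of the signal, was at 8.24 to 8.82 in CON 1W and 8.20 to 8.66 in RES 1W (log2 fold change -0.10, SE 0.15, adjusted p = 0.86), and Sufu, its inhibitor, had -0.05 (adjusted p = 0.92). The median of the list was -0.01. Of 15 genes that the study names for this comparison 13 were lower and 1, Cdkn2b, higher. The study chose them on these samples, so their count is not independent evidence. Smo was the 1 not called, and Rad9a, a checkpoint clamp subunit, fell by 0.48 (adjusted p = 0.033), a call lost in 6 of 15 repeats that left out 1 array (highest adjusted p = 0.11). None of 13 Wnt genes was called by limma (lowest adjusted p = 0.093), and of 14 developmental transcription factors 1 was, the homeobox gene Meox1 (-0.53, adjusted p = 0.036), lost in 8 of 15 such repeats (highest adjusted p = 0.12).

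**Figure D3:**
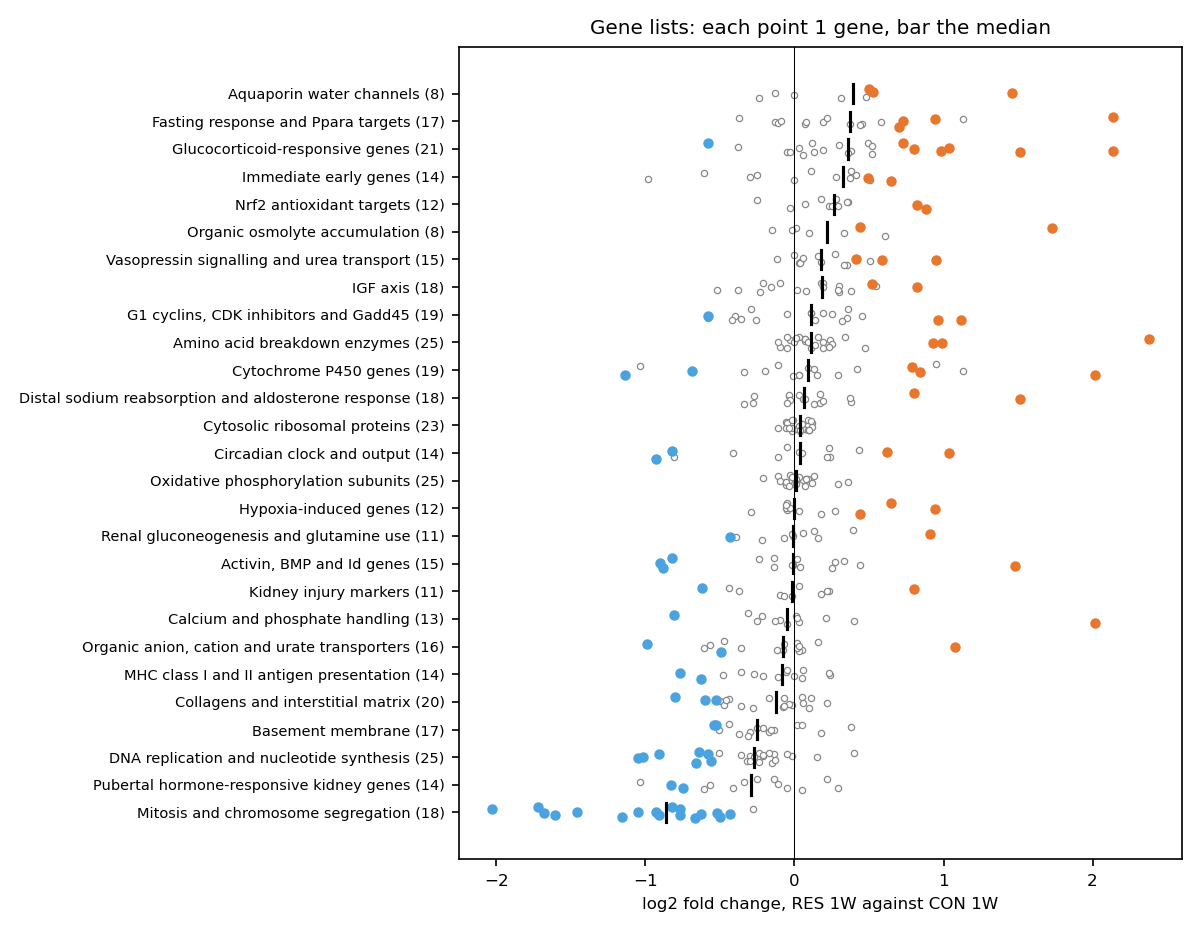
Log2 fold change of RES 1W against CON 1W (x axis) for the members of each list with 2 or more called genes, and of 2 lists with 0; filled points were called (orange higher, blue lower), open points were not, bars are medians and the number of tested genes is in brackets. Mitosis genes sit at a median of -0.86, and ribosomal protein genes between -0.11 and 0.12.

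A few matrix genes were lower (1.61% of all genes were). Col4a1 and Col4a2, the collagen IV chains of most basement membranes, fell by 0.54 and 0.53 (adjusted p = 0.0040 and 0.021). Col4a1 was at 11.46, 11.67, 11.62 and 11.57 in CON 1W and 11.08, 10.94, 11.15 and 10.98 in RES 1W, without overlap. They were the 2 called of 17 basement membrane genes, whose median was -0.25, and the call of Col4a2 was lost without CON 1W replicate 2 or 3 or RES 1W replicate 1, 2 or 3 (highest adjusted p = 0.080). Of 20 interstitial matrix genes 3 were lower, Col5a1, Col14a1 and Col15a1, by 0.60, 0.80 and 0.53 (adjusted p = 0.0021, 0.0041 and 0.024), and the last of these was lost in 5 of 15 repeats that left out 1 array (highest adjusted p = 0.090). Bgn and Dcn, abundant proteoglycans of the stroma, had -0.07 and 0.11 and were not called, nor was any of 7 fibroblast and pericyte, 12 endothelial or 21 integrin and junction genes by limma.

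Genes of antigen presentation were lower in 2 of 14 (1.61% over all genes). Cd74, the invariant chain of MHC class II, was at 10.02, 9.71, 9.97 and 9.74 in CON 1W and 9.24, 9.08, 8.81 and 9.21 in RES 1W (log2 fold change -0.77, SE 0.14, adjusted p = 0.0045), and H2-Eb1, a class II beta chain, fell by 0.63 (adjusted p = 0.0061). Of 6 tested markers of macrophages and dendritic cells 1 was called, Mrc1 (-0.68, adjusted p = 0.018, lost in 4 of 15 repeats that left out 1 array, highest adjusted p = 0.060). All 6 were below 0, with a median of -0.34, but Csf1r and C1qa were near it (-0.04 and -0.12, adjusted p = 0.95 and 0.72). The summed linear level of the 6 was 487 to 507 in CON 1W and 378 to 415 in RES 1W. Whether fewer such cells account for the lower class II genes was not tested. Isg15, an interferon-stimulated gene, fell by 0.80 (adjusted p = 0.035), a call lost in 5 of 15 repeats that left out 1 array (highest adjusted p = 0.13), and 12 of 13 genes of its list were below 0. Serpina1b and Serpina1c, near-identical genes of the antiprotease alpha-1-antitrypsin named after their values were seen, were 2.25-fold and 2.15-fold higher (adjusted p = 0.0030 and 0.00085). Of 4 tested liver markers 0 were called, 3 were above 0 and 1 below, and the median was 0.35. Apoa1 had 0.64 without overlap (adjusted p = 0.074), and a dimmer probe of Serpina1a rose by 1.04 (adjusted p = 0.045). The summed linear level of the 4 markers went the other way, at 2010 to 3320 in CON 1W and 1800 to 2090 in RES 1W. Podocyte markers were called in 1 of 6 (Ptpro, 0.59, adjusted p = 0.025, lost in 5 of 15 repeats that left out 1 array, highest adjusted p = 0.088), with a summed level of 5020 to 5690 in CON 1W and 6210 to 6750 in RES 1W.

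Housekeeping groups were read after the arrays had been scaled to a common distribution, so their values are relative to it. Of 25 tested subunits of oxidative phosphorylation and 23 ribosomal proteins 0 were called by limma, with medians of 0.01 and 0.04 and ribosomal values between -0.11 and 0.12. None of 16 ribosome biogenesis genes was called either (lowest adjusted p = 0.10).

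The response after 1 week was set against that after 4 weeks by testing the difference between the effect at 1 week (RES 1W against CON 1W) and that at 4 weeks (RES 4W against CON 4W). Age and duration of restriction changed together between these comparisons and cannot be told apart. The difference was called for 111 probes (0.583%) and 62 genes (0.572%), of which 43 were also called in RES 1W, 27 among the genes that fell and 16 among those that rose. The count rests on single arrays at both times. It was 2851 when RES 4W replicate 1 was left out and 16 when CON 1W replicate 3 was. It was between 18 and 143 when any other array was left out. In RES 4W itself 1235 probes (6.49%) and 632 genes (5.83%) were called. Of the 194 genes higher in RES 1W, 43 were also higher in RES 4W (2.68% of all genes were) and 2 were lower, and of the 175 genes lower in RES 1W, 15 were also lower in RES 4W (3.15% of all genes) and 0 higher. Both comparisons share the estimate of spread.

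**Figure D4:**
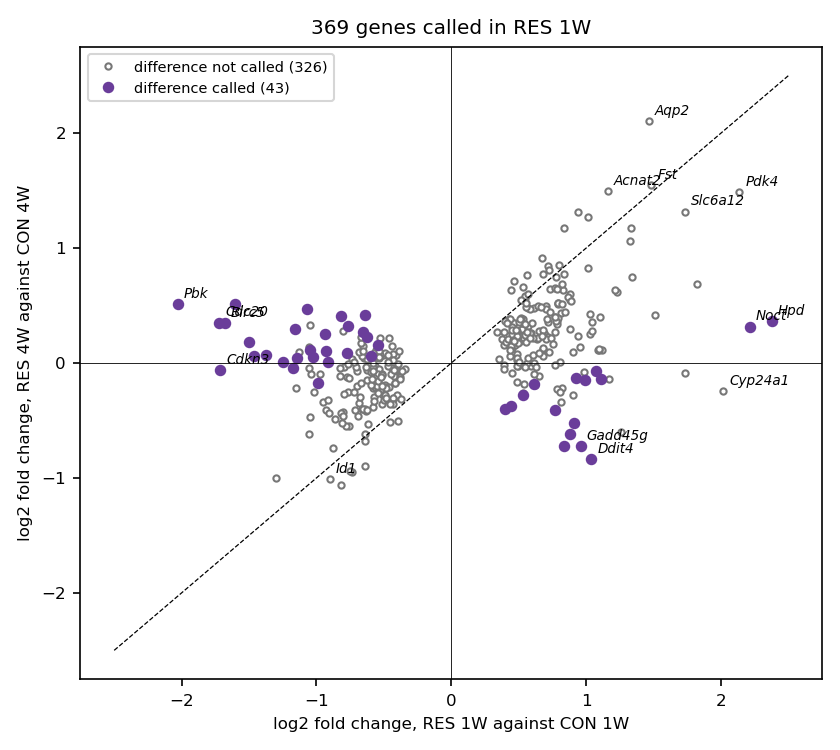
Log2 fold change at 1 week (x axis) and at 4 weeks (y axis) for the 369 genes called in RES 1W; filled points are the 43 genes whose difference of effects was called and the dashed line marks equal effects. Pbk and Cdc20 lie far left with small positive values at 4 weeks, and Hpd and Noct far right with 0.36 and 0.32.

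Genes of cell division gave the largest differences between 1 and 4 weeks among genes that fell. Cdc20 fell by 1.72 in RES 1W and had 0.35 in RES 4W (adjusted p = 0.26), and the difference of -2.07 (SE 0.26, adjusted p = 0.0037) was called in all 15 repeats that left out 1 array. In the 7-week-old kidneys Cdc20 was at 5.80, 5.92 and 5.74 in CON 4W and 6.27, 6.42, 6.18 and 5.83 in RES 4W, so the older controls already lay below the lowest RES 1W kidney (6.14). Pbk, Birc5, Prc1 and Cdkn3 had differences of -2.54, -2.03, -2.12 and -1.65, each called in all 15 repeats, and so had Lockd, a noncoding transcript next to Cdkn1b that was named after its values were seen (-1.53, adjusted p = 0.0065). Of the 18 mitosis genes the difference was called for 11 (0.572% over all genes), and the median at 4 weeks was 0.12. In CON 4W Aurka and Bub1b were each detected in 1 array, and Cdk1 and Cdc25c in 0. A fall at 4 weeks could not have been read for such genes. Cdc20, Birc5 and Cdkn3 had means of 5.82, 5.41 and 5.45 in CON 4W, where the lowest signal above background was 4.82 to 4.91. A fall as large as that at 1 week could not have been read for these either. For all of them the difference cannot tell a smaller effect from a control level too low to fall as far.

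Among genes that rose, Ddit4 was higher in RES 1W by 1.04 and lower in RES 4W by 0.83 (adjusted p = 0.0082 and 0.035), a difference of 1.87 (SE 0.29, adjusted p = 0.012) called in all 15 repeats. Its controls also differed with age, at 7.56 to 8.25 in CON 1W and 9.30 to 9.40 in CON 4W. The restricted kidneys were at 8.82 to 9.40 in RES 1W and 7.87 to 8.85 in RES 4W. Hpd was at 8.26 to 8.57 in CON 4W and 8.43 to 9.10 in RES 4W, where its log2 fold change was 0.36 (adjusted p = 0.38). The difference of 2.01 (adjusted p = 0.019) was called in 13 of 15 repeats, and its adjusted p reached 0.059 when CON 1W replicate 3 was left out. For Noct the difference of 1.90 (adjusted p = 0.019) was called in 14 of 15, with 0.056 without that same array. Other called differences included those of Pck1, Gsta2, Gldc, Kynu, Slc2a9, Slc22a12, Cyp7b1 and Col4a1. These 8 were less stable, each lost in at least 7 of 15 repeats.

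For Slc6a12 and Aqp2 no such difference was called, unlike Aqp1 (0.53 at 1 week and -0.28 at 4 weeks, difference 0.81, SE 0.17, adjusted p = 0.047, called in 3 of 15 repeats that left out 1 array). Slc6a12 was at 7.12 to 7.45 in CON 4W and 8.55 to 8.63 in RES 4W, and its effects of 1.73 and 1.32 differed by 0.42 (SE 0.16, adjusted p = 0.18). Aqp2 rose by 2.11 in RES 4W, where replicate 1 was at 9.55 and the other 3 at 10.53 to 10.98, and the difference from 1 week was -0.64 (SE 0.34, adjusted p = 0.32). Fst, Car15 and Id1 had effects of 1.55, 1.18 and -1.01 at 4 weeks, and their differences from 1 week were -0.07, 0.15 and 0.11 (SE 0.23, 0.18 and 0.22). These p-values miss the threshold, which does not show that the effects were equal.

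**Figure D5:**
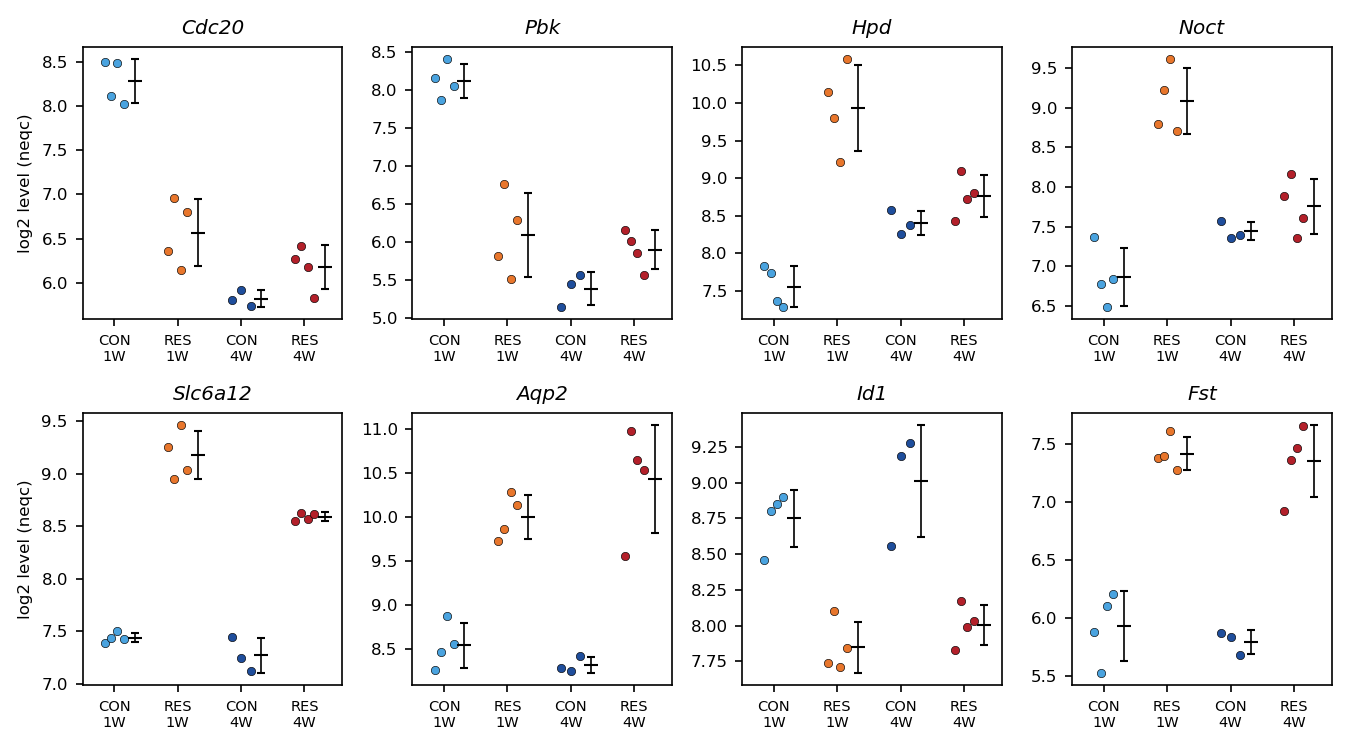
Log2 levels (y axis) of 8 genes in the 4 groups; points are arrays and bars give the mean and SD (n = 4, 4, 3 and 4). Cdc20, Pbk, Hpd and Noct separate the groups at 1 week far more than at 4 weeks, whereas Slc6a12, Aqp2, Fst and Id1 separate them at both.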

How the data were processed

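Mouse kidney RNA was read on 15 Illumina whole-genome bead arrays. Per the file headers and the submitters' processing notes, the authors summarised the beads in GenomeStudio 1.0.2, and the deposited table holds, for each array, an intensity and a detection p-value per probe. The deposited intensities were already background-subtracted and quantile-normalized (34.9% are at or below 0), and detection p-values move in steps of 1 in 936. A table of processed values deposited by the authors is log2 of the same intensity with values under 5 left out (52.2% missing), and served as an alternative. Intensities were passed through neqc of limma 3.58.1 (R 4.3.3, offset 16), and a probe was kept if 3 or more of the 15 arrays detected it (p under 0.05). One model with the 4 groups was fitted to all 15 arrays with lmFit and eBayes, and p-values were adjusted by Benjamini and Hochberg over 19027 probes. The script was tested on simulated data with 200 changed probes. Tables and plots were made with Python 3.11.15, pandas 2.3.3 and matplotlib 3.10.9. The number of arrays limits the precision.

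Gene names are those of the array table, where 16351 tested probes carry 1 symbol, and 3869 genes have several tested probes. Replicate numbers did not pair the arrays: the correlations of same-numbered deviations were 0.0766, -0.069, -0.017 and -0.00837. Genes were named as the 15 largest rises and 15 largest falls among called genes without overlap, all genes that the study names, up to 6 called genes of smallest p and up to 3 uncalled genes of highest level in each list, markers, and the 10 largest called differences of effect. The members and lists were chosen with earlier results of these data known. Alternatives were other background corrections, offsets, scalings and filters, the authors' processed values, an analysis of variance as in the methods, a fit on 8 arrays, array weights, a trended and robust prior, a replicate block and leaving out each array. Sequences came from RefSeq's GRCm38.p6.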

Additional observations from a re-analysis of the deposited data

Results flagged for a closer look

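In 13 of 252 groups of 4 arrays, 1 array stood apart from the other 3 by Dixon's ratio, a rate near the 1 in 20 that chance gives. In CON 1W these were Acot3 in replicate 3 (8.45), Aurka in replicate 4 (5.90), Dbp in replicate 1 (12.76), Id2 in replicate 3 (10.66), Igfbp5 in replicate 2 (12.89), Sox9 in replicate 4 (6.92) and Tk1 in replicate 3 (8.07). In RES 1W they were Cdkn2b in replicate 4 (6.82), H2ac24 in replicate 2 (10.10), H2ac7 in replicate 2 (9.79), Id2 in replicate 3 (8.90), Nr1d1 in replicate 2 (5.75) and Tmem207 in replicate 2 (7.66).

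The effect at 1 week minus that at 4 weeks differed from 0 by limma for 35 of the called genes named here. Among genes of mitosis and the cell cycle the differences on the log2 scale were -1.22 for Aurka, -2.03 for Birc5, -1.09 for Bub1b, -2.07 for Cdc20, -1.53 for Cdca3, -0.92 for Cdca8, -1.65 for Cdkn3, -0.86 for Cenpa, -1.04 for Kif22, -2.54 for Pbk, -1.46 for Plk1 and -2.12 for Prc1. Among genes of replication and chromatin they were -1.06 for Mcm5, -1.07 for Rrm2, -1.16 for H2ac11, -1.44 for H2ac12, -1.68 for H2ac15, -1.26 for H2ac24, -1.13 for H2ac7 and -1.53 for Lockd. Col4a1, Col5a1, Cyp7b1 and Slc22a12 had -0.70, -0.66, -1.18 and -0.81. Positive differences were 0.81 for Aqp1, 1.87 for Ddit4, 1.24 for Dusp8, 1.68 for Gadd45g, 1.06 for Gldc, 1.49 for Gsta2, 2.01 for Hpd, 1.14 for Kynu, 1.90 for Noct, 1.44 for Pck1 and 1.14 for Slc2a9. Of the 35, 7 were called in all 15 repeats that left out 1 array and 28 were lost in at least 1.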

How the results depend on the processing

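Of 125 called genes named here, 79 stayed called in all 27 alternatives that tested them, and 0 of the 125 changed sign. Of 203 named but uncalled genes, 0 were called in the opposite direction in an alternative. Their changes of sign without a call were not counted, such as that of Slc22a8 (-0.13 to 0.17). Leaving out 1 array gave 291 (without RES 1W replicate 4) to 820 (without RES 4W replicate 1) changed probes, 147 to 417 higher, 144 to 403 lower, 96 to 246 past the methods' thresholds and 16 to 2851 with a difference between 1 and 4 weeks. Array weights gave 396 lower probes and 2878 differences. The count past the methods' thresholds was 102 without background correction and 92 with the methods' ANOVA. The count of differences was 11 without background correction, 268 with an offset of 50, 57 with the authors' processed values, 27 without a filter on dim probes, 288 with a stricter one, 23 with the ANOVA and 309 with a trended and robust prior. The cause of these changes was not tested. A replicate block gave 458 changed probes, 160 past the methods' thresholds and 89 differences. Median scaling gave 44.9% higher calls of 488, against 50.7% of 534. Where signal was near the negative controls, the size of a difference is uncertain, and a small difference may have been missed.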
